A study of Mus musculus with 6 samples.

Results

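Potassium channel genes were followed in cells of the embryonic mouse cortex sorted as young neurons. Every gene whose symbol begins with Kcn was taken, which gave 93 of 20367 genes. The choice rests on the symbol alone, so it takes in auxiliary subunits and Kcnrg, a regulator, beside the genes of the channel pores. By symbol, 30 genes code for pore subunits of voltage-gated channels (Kcna, Kcnb, Kcnc, Kcnd, Kcnh and Kcnq), and 10 for modifier subunits that are silent alone (Kcnf, Kcng, Kcns and Kcnv). A further 12 code for auxiliary subunits (Kcnab, Kcnip and Kcne), 15 for inward rectifiers (Kcnj) and 13 for two-pore channels (Kcnk). The last group, of 12, holds channels opened by calcium or other ions with the auxiliary subunits of the large-conductance calcium-activated channel (Kcnma, Kcnmb, Kcnn, Kcnt and Kcnu).

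The libraries came from cortices of C57BL/6J embryos that carried a GFP reporter of the intermediate progenitor gene Tbr2 (Eomes), passed on by a heterozygous parent, and an mRFP reporter of doublecortin (DCX), a protein of young neurons. Cell sorting gave neurons derived from intermediate progenitor cells (IPN, green and red) and the remaining red cells (non-IPN), with 1 library of each at each of embryonic days 13.5 (E13.5), 15.5 (E15.5) and 16.5 (E16.5). At E15.5, 1000000 cells per population were used without amplification; at E13.5 and E16.5, 10000 cells per population were used and their cDNA was amplified with the Ovation RNA-Seq System V2. A level at E15.5 and a level at another age therefore differ in age and in preparation, which cannot be told apart, and no such difference was tested. The labels do not say how many embryos were pooled, so the p-values below measure only the spread between these libraries.

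Levels are given in ppm, meaning the deposited value per 1000000 of the total of its library, and sets of 3 values per population run in order of age. Library totals lay between 12583677 and 32538995. Marker genes were read with the test described below. Of 8 projection neuron markers, 6 were called higher in IPN and 0 lower, and of 9 interneuron markers, 9 were called lower in IPN and 0 higher. All 10 microglia and macrophage markers were called lower in IPN, with sums of 5.0, 2.3 and 1.8 ppm in IPN against 904.3, 910.5 and 458.0 in non-IPN. In IPN, C1qa was listed at 0 at E13.5, and C1qa, C1qc, Fcer1g and Aif1 at E16.5. The 8 radial glia markers summed to 1177.4, 358.9 and 533.8 ppm in IPN against 4196.9, 607.6 and 1047.9 in non-IPN, with 1 of 8 called lower. Red blood cell markers summed to 35624.4 ppm in non-IPN at E13.5 and to at most 132.9 in the other 5 libraries, with 1 of 7 called lower. Of 6 markers of newborn neurons and intermediate progenitors 2 were called higher, and of the endothelial, oligodendrocyte precursor, choroid plexus and Cajal-Retzius markers none was called (limma). In such sorted pools, fewer cells of a type and less RNA per cell cannot be told apart.

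Potassium channels let potassium leave or enter the cell, and so set the resting potential and the shape and spacing of action potentials. Voltage-gated channels end the action potential, inward rectifiers and two-pore channels hold the cell near rest, and calcium-activated channels follow bursts of activity. Young neurons gain these currents step by step as they leave the progenitor zones and mature.

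Every one of the 93 genes had a value above 0 somewhere, and 53 had one in all 6 libraries. The mean over the 6 libraries was 10 ppm or more for 22 genes, from 1 to 10 for 39 and under 1 for 32. The summed level of the family was 261.6, 1303.3 and 631.0 ppm in IPN, against 227.0, 1205.5 and 646.9 ppm in non-IPN. Voltage-gated pore subunits made up 56.2%, 55.3% and 53.6% of that sum in IPN by age, against 36.5%, 72.3% and 56.2% in non-IPN. Two-pore channels made up, at E13.5, 0.814% of it in IPN and 11.7% in non-IPN, and between 2.97% and 3.47% in the 4 later libraries. These shares compare sums over genes of unequal length and have no replicate within an age.

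Only Kcnd2 and Kcnn2 were at 10 ppm or more in all 6 libraries. Kcnd2, a pore subunit of the fast inactivating A-type current, was at 18.6, 13.03 and 22.6 ppm in IPN, against 19.5, 19.0 and 11.5 in non-IPN. Kcnn2, a small-conductance calcium-activated channel, was at 22.4, 61.1 and 47.5 ppm in IPN against 15.4, 24.2 and 41.3 in non-IPN. Per kilobase of merged exons (GENCODE M21, which may differ from the annotation behind the files), the highest mean levels included those of Kcnj11 (6.83 ppm per kilobase), Kcna1 (5.52) and Kcnd3 (5.52). Kcnc1 (4.82), Kcnn2 (4.73) and Kcnv1 (4.61) followed, with no test of their order.

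**Figure D1:**
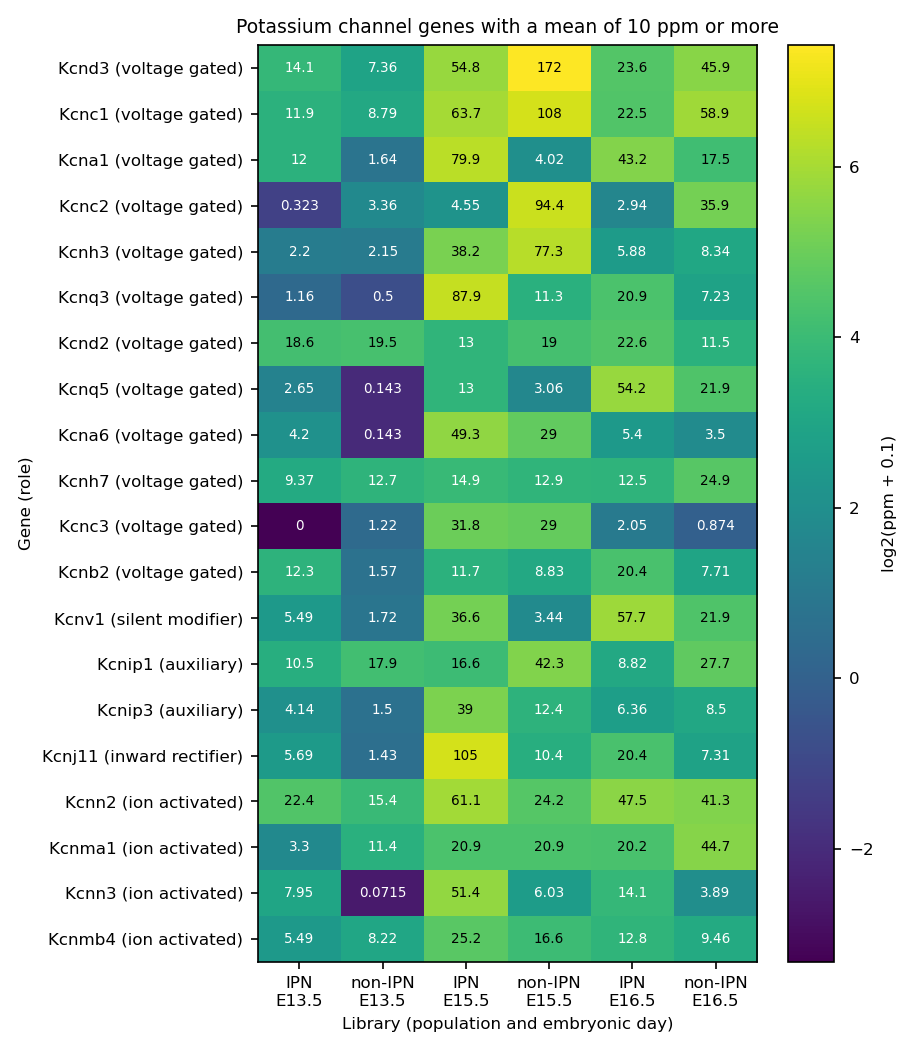
Levels of 20 of the 22 potassium channel genes with a mean of 10 ppm or more (rows, grouped by role) in each of the 6 libraries (columns); color is log2(ppm + 0.1) and the printed number is the level in ppm. Kcnc2, Kcnip1 and Kcnma1 (20.87 against 20.88 ppm at E15.5) were lower in IPN than in non-IPN at every age. Kcna1, Kcna6, Kcnb2, Kcnj11, Kcnn2, Kcnn3, Kcnq3, Kcnq5 and Kcnv1 were higher. By the log2 ratio, 18.3% of the 93 channel genes were higher in IPN at all ages and 15.1% lower, beside 14.2% and 15.2% of all genes tested.

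Between the populations, potassium channel genes went both ways: 4 were higher and 4 lower in IPN. The question was which channel genes differ between the IPN sort and the remaining red cells. Non-IPN also held microglia, red blood cell and radial glia markers, as given above. It held projection neuron markers too, with sums of 487.5, 408.3 and 2507.7 ppm by age. Higher were Kcna1, Kcnn3, Kcnj11 and Kcnv1, and lower were Kcnc2, Kcnh4, Kcnk6 and Kcnk13. A gene is called when its adjusted p from limma, fitted on log2(value + 1) with population and age as factors and adjusted over all genes by the Benjamini-Hochberg method, is under 0.05. Over all 19561 genes above 0 somewhere, 3.39% were called, 0.982% higher and 2.41% lower in IPN. Of the 93 channel genes, 8 were called (8.6%), which is 4.3% in each direction. The median fitted log2 difference was -0.18 over the channel genes and -0.02 over all genes, with 44 channel genes positive and 49 negative. At a mean of 10 ppm or more, 5 of 22 channel genes were called, beside 4.49% of 9349 genes. From 1 to 10 ppm the count was 3 of 39 beside 6.78% of 3482 genes, and under 1 ppm it was 0 of 32 (limma) beside 0.119% of 6730. The mean behind these classes takes in both populations. A called gene can thus enter a class through the population where it is high. Kcnc2 was at most at 4.55 ppm in IPN, and Kcnn3 at most at 6.03 ppm in non-IPN. The counts by class are therefore tied to the difference tested and only describe the genes.

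Kcna1, a delayed rectifier subunit of the Shaker class found along axons, was at 12.02, 79.9 and 43.2 ppm in IPN, against 1.64, 4.02 and 17.5 in non-IPN. IPN stood above non-IPN within each age, and the 2 ranges overlapped across ages. The fitted log2 difference was 2.95 ± 0.53 (SE; limma adjusted p = 0.0118). Its class partners Kcna2, Kcna4 and Kcna6 had positive ratios at all 3 ages too, but missed the threshold; Kcna4 and Kcna6 are named here after their values were seen. They were at 1.46 ± 0.55, 2.66 ± 0.80 and 2.04 ± 0.76 (limma adjusted p = 0.264, 0.133 and 0.253). Kcna4 reached 22.9 ppm in IPN at E16.5, against 2.78 in non-IPN. The class did not go 1 way: Kcna5 had negative log2 ratios at all 3 ages (-2.17, -0.16 and -0.68). The fitted differences of Kcna3 (-1.77 ± 1.15, limma adjusted p = 0.579) and Kcna10 (-0.5 ± 0.72, limma adjusted p = 0.83) were negative too. Kcna5, Kcna3 and Kcna10 were not called between the populations. Kcna1 lies between Kcna5 and Kcna6 in the order of protein-coding genes on chromosome 6. Over the 8 Kcna genes the median log2 difference was 0.87, with 1 called.

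Kcnn3, a small-conductance calcium-activated channel that slows repeated firing, was at 7.95, 51.4 and 14.1 ppm in IPN against 0.0715, 6.03 and 3.89 in non-IPN. Its lowest IPN value lay above its highest non-IPN value. The log2 difference was 3.71 ± 0.75 (limma adjusted p = 0.0221), with log2 ratios of 5.95, 3.14 and 2.05 by age. The value of non-IPN at E13.5 stands for 1 in the deposited file, so the first ratio depends on the pseudocount. Kcnn2 (0.83 ± 0.30, limma adjusted p = 0.242) and Kcnn1 (1.82 ± 0.79, limma adjusted p = 0.35), of the same class, were not called. Kcnn4, which is known from blood and immune cells, was at most at 0.159 ppm in any library.

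Kcnj11 codes for the pore of the ATP-sensitive potassium channel, which couples metabolism to excitability. It was at 5.69, 105 and 20.4 ppm in IPN against 1.43, 10.4 and 7.31 in non-IPN, with IPN the higher at each age and overlap across ages. The log2 difference was 2.38 ± 0.48 (limma adjusted p = 0.0211). Abcc8, the sulfonylurea receptor that assembles with this pore and lies next to Kcnj11 on chromosome 7, was at 5.11, 166 and 26.5 ppm in IPN against 0.286, 12.3 and 15.7 in non-IPN. Its difference of 2.92 ± 0.60 also passed (limma adjusted p = 0.0237), but not without the E15.5 pair (2.49, limma adjusted p = 0.477). The vascular pair of pore and receptor, Kcnj8 and Abcc9, stayed at or below 1.30 ppm in every library.

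Kcnv1, a modifier subunit that assembles with pore subunits of the Kcnb class, was at 5.49, 36.6 and 57.7 ppm in IPN against 1.72, 3.44 and 21.9 in non-IPN. Within each age IPN was higher, and the ranges overlapped across ages. Its log2 difference was 2.28 ± 0.49 (limma adjusted p = 0.0306). Kcnb2, a pore of that class, was not called (1.71 ± 0.57, limma adjusted p = 0.182). The 8 projection neuron markers summed to 3300.9, 4803.5 and 5069.5 ppm in IPN against 487.5, 408.3 and 2507.7 in non-IPN, and their part in the 4 genes higher in IPN was not tested.

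Kcnc2, a pore subunit of the Shaw class that opens at high voltage and serves fast-firing interneurons, was at 0.323, 4.55 and 2.94 ppm in IPN against 3.36, 94.4 and 35.9 in non-IPN. IPN was lower at each age, and the non-IPN value at E13.5 lay among the IPN values of later ages. The log2 difference was -3.56 ± 0.54 (limma adjusted p = 0.0051). Kcnc1, of the same class, was at 11.9, 63.7 and 22.5 ppm in IPN against 8.79, 108 and 58.9 in non-IPN, and was not called (-0.43 ± 0.36, limma adjusted p = 0.686).

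Kcnh4, of the ether-à-go-go superfamily, was at 0.129, 1.63 and 0.0684 ppm in IPN against 2.36, 37.0 and 2.70 in non-IPN, with no overlap of the populations. The log2 difference was -4.02 ± 0.76 (limma adjusted p = 0.0153). The IPN levels at E13.5 and E16.5 stand for 2 and 1 in the deposited files, so the size depends on the pseudocount. With a pseudocount of 10 the difference was -2.69 and was not called (limma adjusted p = 0.107). The Kcnh4 relatives Kcnh3, the member with the highest mean of that subfamily, and Kcnh7 were not called (-0.36 ± 0.46 and -0.27 ± 0.40, limma adjusted p = 0.818 and 0.83). The subfamily did not go 1 way. Kcnh5, named here after its values were seen, had positive ratios at all 3 ages but was not called (2.54 ± 0.86, limma adjusted p = 0.189). Kcnh1 and Kcnh2 were positive (0.91 and 0.44) and Kcnh6 and Kcnh8 negative (-0.45 and -0.12), none of them called. The 9 interneuron markers summed to 18.4, 60.7 and 49.5 ppm in IPN against 1221.6, 4538.8 and 2542.7 in non-IPN, with Dlx5 and Dlx6 listed at 0 in IPN at E13.5 and Slc32a1 and Dlx6 at E16.5. Their part in the differences of Kcnc2, Kcnh4 and the further genes lower in IPN was not tested.

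Promoter sequences of called neuronal channel genes are shown to give the start regions of 1 gene higher in IPN (Kcnn3) and 2 lower in IPN (Kcnc2 and Kcnh4). They are the 250 bases before the RefSeq start (GRCm38.p6, a later build than the mm9 of the processing notes), for Kcnc2 before the most upstream of 4 listed starts. Capitals mark CAGCTG, 1 of the forms of the E-box, which is its own reverse complement, and GGGCGG or its reverse complement CCGCCC, a GC box.
Kcnn3, chr3:89519914-89520163, plus strand: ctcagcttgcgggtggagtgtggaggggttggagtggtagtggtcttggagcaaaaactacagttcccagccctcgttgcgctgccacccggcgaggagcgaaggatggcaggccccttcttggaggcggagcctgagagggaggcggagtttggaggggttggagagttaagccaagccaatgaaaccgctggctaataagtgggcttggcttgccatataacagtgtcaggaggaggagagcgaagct
Kcnc2, chr10:112269767-112270016, plus strand: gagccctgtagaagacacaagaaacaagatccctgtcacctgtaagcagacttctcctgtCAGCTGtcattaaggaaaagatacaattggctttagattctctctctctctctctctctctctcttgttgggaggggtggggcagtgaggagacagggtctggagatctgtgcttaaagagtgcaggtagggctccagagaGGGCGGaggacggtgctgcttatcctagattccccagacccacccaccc
Kcnh4, chr11:100759779-100760028, minus strand: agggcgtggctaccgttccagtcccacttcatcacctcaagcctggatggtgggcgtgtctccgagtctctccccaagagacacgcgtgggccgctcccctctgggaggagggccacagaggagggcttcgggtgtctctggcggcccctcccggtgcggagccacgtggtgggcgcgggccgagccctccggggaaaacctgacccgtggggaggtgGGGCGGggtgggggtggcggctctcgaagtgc
Kcnc2 held 1 CAGCTG and 1 GC box, Kcnh4 held 1 GC box and Kcnn3 held neither; forms of the E-box other than CAGCTG and CAGATG were not searched. CAGCTG was in 22.2% and the GC box in 45.6% of the 90 windows of the 68 channel genes that had an entry. Over all 32851 windows of this length, CAGCTG was in 4271 and the GC box in 32.7%. GC content was 58.8% for Kcnn3, 52.4% for Kcnc2 and 70.8% for Kcnh4, beside a median of 52.4% over all windows. The other motifs searched on both strands were CAGATG, which reads CATCTG on the other strand, in 14.4% of channel gene windows and 14.4% of all windows, and TAATTA, in 0 of 90 and in 4.84% of all. A match is a description of the letters, and binding was not tested.

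The last 2 genes lower in IPN were two-pore channels. Kcnk6 was at 0.129, 0.0922 and 0.41 ppm in IPN against 9.01, 10.2 and 4.13 in non-IPN (-4.88 ± 0.89, limma adjusted p = 0.0126). Kcnk13, known as the resting channel of microglia in mouse, was listed at 0 in IPN at E13.5 and E16.5 and at 0.123 ppm at E15.5, against 3.43, 3.51 and 1.11 in non-IPN (-4.66 ± 0.88, limma adjusted p = 0.0153). Neither gene overlapped between the populations, and the sizes of both differences depend on the pseudocount. The microglia and macrophage markers, summed above, were also high in every non-IPN library and near 0 in IPN. Their part in the difference of Kcnk6 and Kcnk13 was not tested. The highest two-pore channel by mean, Kcnk10, was at 0.194, 22.2 and 8.82 ppm in IPN against 1.57, 10.5 and 3.18 in non-IPN, and was not called (0.09 ± 0.84, limma adjusted p = 0.981).

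**Figure D2:**
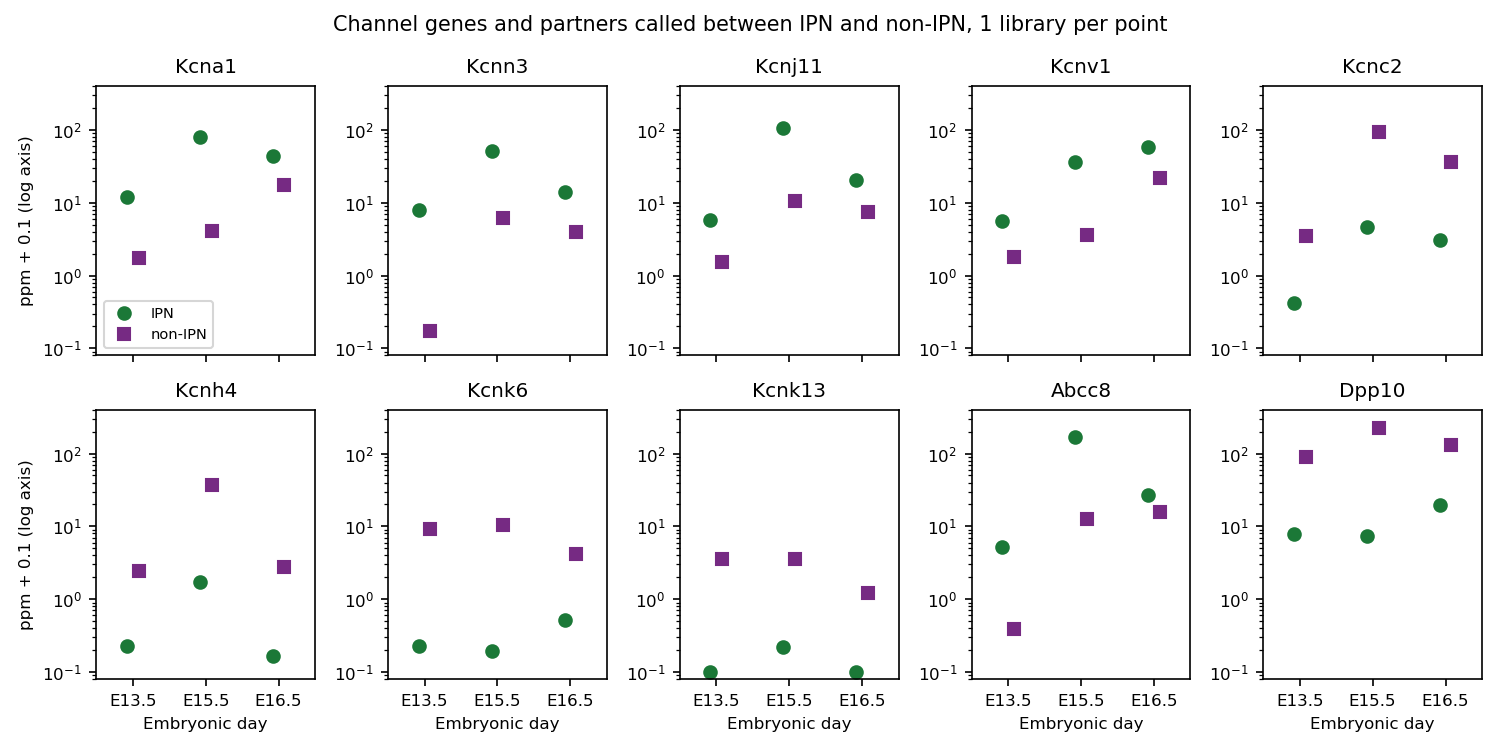
Level in ppm plus 0.1 (log axis) by embryonic day for the 8 potassium channel genes and 2 partner genes called between IPN (circles) and non-IPN (squares), with 1 library per point. In every panel 1 population lies above the other at all 3 ages: IPN for Kcna1, Kcnn3, Kcnj11, Kcnv1 and Abcc8, and non-IPN for Kcnc2, Kcnh4, Kcnk6, Kcnk13 and Dpp10. The fit that called these genes has age as a factor and favors the same order at each age, so the order is no separate result.

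Of the A-type channel complex, the accessory protein Dpp10 was lower in IPN. Dpp10, which speeds the gating of Kcnd channels, was at 7.69, 7.16 and 19.5 ppm in IPN against 88.4, 225 and 131 in non-IPN, a difference of -3.60 ± 0.40 (limma adjusted p = 0.00106). No IPN library reached any non-IPN library. Its relative Dpp6 (-1.32 ± 0.37, limma adjusted p = 0.102) and the calcium-binding subunit Kcnip1 (-1.11 ± 0.36, limma adjusted p = 0.165) were lower at each age but not called. Kcnip1 was at 10.5, 16.6 and 8.82 ppm in IPN against 17.9, 42.3 and 27.7 in non-IPN, without overlap. The Kcnip genes did not go 1 way. Kcnip3 was positive but not called (1.02 ± 0.55, limma adjusted p = 0.482), with log2 ratios of 1.56, 1.70 and -0.20 by age. Kcnip2 (-0.71 ± 0.87) and Kcnip4 (-0.07 ± 0.68) were not called (limma adjusted p = 0.801 and 0.983). The pores Kcnd2 (0.26 ± 0.41, limma adjusted p = 0.83) and Kcnd3 (-0.42 ± 0.44, limma adjusted p = 0.769) were not called and had ratios of both signs over the ages, and no test compared them with Dpp10. Without the E15.5 pair Dpp10 was at -2.95 (limma adjusted p = 0.051), and without the E13.5 pair Kcnd3 was at -1.17 (limma adjusted p = 0.0789). Kcnd3 was at 14.1, 54.8 and 23.6 ppm in IPN against 7.36, 172 and 45.9 in non-IPN.

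Kcns3, Kcnmb2, Kcnq5 and Kcnq3 missed the threshold. Kcns3, a modifier subunit named here after its values were seen, was at 0, 0.123 and 0 ppm in IPN against 0.143, 4.53 and 5.25 in non-IPN (-4.16 ± 1.04, limma adjusted p = 0.0609). Kcnmb2, an inactivating subunit of the large-conductance calcium-activated channel, was at 0.129, 0.768 and 1.71 ppm in IPN against 0.929, 24.5 and 4.13 in non-IPN (-2.71 ± 0.88, limma adjusted p = 0.171). On the other side, Kcnq5 (2.49 ± 0.62, limma adjusted p = 0.0607) and Kcnq3 (2.00 ± 0.55, limma adjusted p = 0.0929), subunits of the M current that damps excitability, were higher in IPN at each age. Without the E13.5 pair, Kcnq3 and Kcns3 passed (2.37 and -5.45, limma adjusted p = 0.0295 and 0.0289), but not without the E15.5 pair (0.709 and 0.522) or the E16.5 pair (0.262 and 0.268).

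Among the other inward rectifiers, Kcnj10, a channel of glial cells, was at 2.07, 1.97 and 2.26 ppm in IPN against 13.9, 4.53 and 13.2 in non-IPN. No IPN value reached a non-IPN value, but the difference was not called (-2.00 ± 0.61, limma adjusted p = 0.136). The sum of the 8 radial glia markers was higher in non-IPN at each age, as given above, but their ratios were mixed. At E15.5 most of the gap was Sox2, at 12.69 ppm in IPN against 283.3 in non-IPN, while Vim, Slc1a3 and Nes had positive log2 ratios of IPN to non-IPN (0.13, 0.53 and 0.39). Their part in the Kcnj10 values was not tested. Kcnj6, a G protein gated channel, was at 0.711, 0.0615 and 0.0684 ppm in IPN against 0.214, 1.47 and 4.61 in non-IPN (-2.42 ± 1.23, limma adjusted p = 0.45). Kcnj13, known from choroid plexus, was at most at 4.05 ppm in any library.

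The remaining named genes were not called in either comparison. Kcnab2, an oxidoreductase-like subunit of Kcna channels, was at 0.84, 21.6 and 2.19 ppm in IPN against 0.286, 21.5 and 0.636 in non-IPN, and Kcnab1 at 0.84, 6.76 and 3.15 against 4.08, 1.27 and 1.19. Kcnmb4, a brain subunit of the large-conductance channel, was at 5.49, 25.2 and 12.8 ppm in IPN against 8.22, 16.6 and 9.46 in non-IPN. Kcng1 was at 43.9 ppm in IPN at E15.5 against 2.84 in non-IPN, and at most at 0.397 in the 4 amplified libraries. Kcnt1, a sodium-activated channel, was at 1.36, 8.27 and 2.60 ppm in IPN against 0.501, 22.8 and 7.79 in non-IPN. The highest members by mean of the Kcnf, Kcns, Kcnu and Kcne groups and the regulator Kcnrg (Kcnf1, Kcns2, Kcnu1, Kcne1l and Kcnrg) were all below 10 ppm in every library.

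The ages are the only replication of the population difference, and an exact test over 3 pairs cannot go below p = 0.25, so the calls rest on limma's sharing of the spread between genes. Without the E15.5 pair, which was not amplified, none of the 8 channel genes was called (limma; 54 genes called over all, 1663 at an unadjusted p under 0.05). Kcna1, Kcnk6, Kcnk13 and Abcc8 also missed the threshold without the E13.5 pair (limma adjusted p = 0.0574, 0.0722, 0.0703 and 0.103), as did Kcnv1 without the E16.5 pair (0.117).

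**Figure D3:**
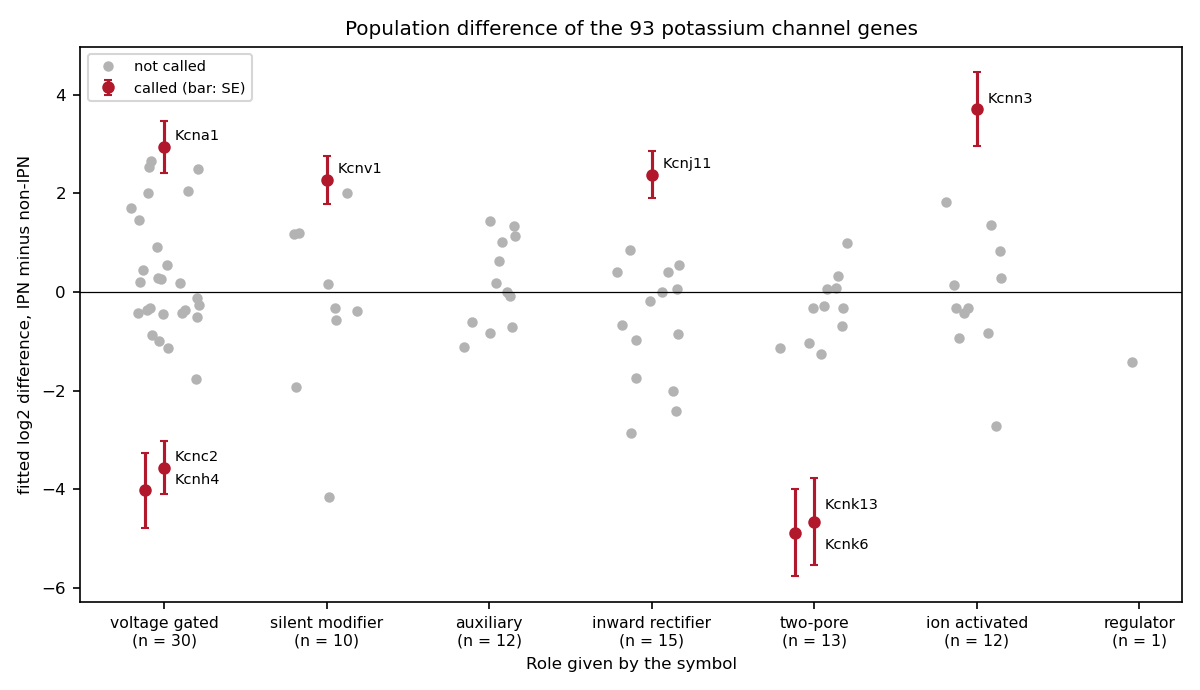
Fitted log2 difference, IPN minus non-IPN, for each of the 93 potassium channel genes by role; gray points were not called, and red points were called and carry the SE. The 4 genes called higher lie between 2.28 and 3.71 in 4 different roles, and the 4 called lower lie between -4.88 and -3.56 among voltage-gated and two-pore genes.

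With age, potassium channel genes changed in 1 direction among those called: 8 rose and 0 fell between E13.5 and E16.5. The comparison of both amplified ages asks which channel genes differ between E13.5 and E16.5 over both sorts. Those that rose included Kcnq5, Kcnq3, Kcng3, Kcnv1, Kcnc2, Kcnc1 and Kcnma1. Over all genes 6.02% were called, 3.76% higher and 2.26% lower at E16.5, while 8.6% of the channel genes were called higher. Below the unadjusted p of 0.05 there were 26.9% of the channel genes higher and 1.08% lower, against 12% and 9.51% of all genes (limma). The median log2 difference was 0.79 over the channel genes and 0 over all genes. At a mean of 10 ppm or more, 7 of 22 channel genes were called, beside 11% of 9349 genes. Of those 22, 19 were higher at E16.5 in both populations, beside 36.4% of those 9349. This mean takes in the ages compared, so a gene can pass through the age where it is high. At E13.5, 9 channel genes in IPN and 7 in non-IPN reached 10 ppm, against 20 and 14 at E16.5. The counts of 7 and 19 among the 22 are therefore partly tied to the filter. Over all 93, the sign was positive in both populations for 41, negative in both for 6 and opposite for 28, and 18 had no change in at least 1 population. As shares, 44.1% of the channel genes were higher in both populations and 6.45% lower, against 27.4% and 24.5% of all genes. Of the marker lists, 4 of 6 genes of newborn neurons and intermediate progenitors were called lower at E16.5 and 3 of 9 interneuron genes higher (limma). In non-IPN, projection neuron markers summed to 2507.7 ppm at E16.5 against 487.5 at E13.5, radial glia markers to 1047.9 against 4196.9 and red blood cell markers to 15.8 against 35624.4. The part of these cells in the age differences was not tested.

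Subunits of the M current were among the genes that rose. Kcnq5 was at 54.2 ppm in IPN and 21.9 in non-IPN at E16.5, and at E13.5 it was at 2.65 in IPN and 0.143 in non-IPN, a log2 difference of 5.38 ± 0.76 (limma adjusted p = 0.00447). Kcnq3 was at 20.9 ppm in IPN and 7.23 in non-IPN at E16.5, against 1.16 and 0.501 at E13.5 (3.77 ± 0.67, limma adjusted p = 0.0119). For both genes each E16.5 library lay above each E13.5 library.

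Of the modifier subunits, Kcng3 and Kcnv1 rose as well. Kcng3 was at 11.4 ppm in IPN and 7.79 in non-IPN at E16.5, and at E13.5 it was at 0.517 in IPN and 0 in non-IPN (5.42 ± 1.04, limma adjusted p = 0.0159). The size for Kcng3 depends on the pseudocount, since it was listed at 0 in 1 library. Kcnv1 was at 57.7 and 21.9 ppm at E16.5, against 5.49 and 1.72 at E13.5, in IPN and non-IPN each time (3.38 ± 0.60, limma adjusted p = 0.0119). The E16.5 libraries were above the E13.5 libraries for both genes.

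Shaw-class and large-conductance channels were also called. Kcnc2 was at 2.94 ppm in IPN and 35.9 in non-IPN at E16.5, against 0.323 and 3.36 at E13.5 (3.06 ± 0.66, limma adjusted p = 0.0256). In Kcnc2 the ages overlapped across populations, and each population was higher at E16.5. Kcnma1, the pore of the large-conductance calcium-activated channel, was at 20.2 ppm in IPN and 44.7 in non-IPN at E16.5, against 3.30 and 11.4 at E13.5 (2.16 ± 0.51, limma adjusted p = 0.0359). Kcnc1 was at 22.5 and 58.9 ppm at E16.5, in IPN and non-IPN, against 11.9 and 8.79 at E13.5 (1.71 ± 0.44, limma adjusted p = 0.0495). Exons of Kcnq5 and Kcnma1 overlap noncoding genes on the opposite strand in GENCODE M21, as do those of other named genes such as Kcnn2 and Kcnd3. Exons of Kcnh3, Kcnh7 and Kcnj13, named above, overlap the protein-coding genes Mcrs1, Gca and Gigyf2 on the opposite strand. The files do not say whether strand was used.

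The genes called higher in IPN other than Kcnv1 were not called between ages. Kcna1 was at 2.48 ± 0.65 (limma adjusted p = 0.0517), Kcnj11 at 1.95 ± 0.58 (limma adjusted p = 0.0812) and Kcnn3 at 2.69 ± 0.92 (limma adjusted p = 0.118), all positive in both populations. Kcnd2, at E13.5 already at 18.6 ppm in IPN and 19.5 in non-IPN, was at -0.36 ± 0.50 (limma adjusted p = 0.722), and Kcnn2 at 1.13 ± 0.37 (limma adjusted p = 0.106).

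Both populations of an age stand in as its replicates, so age cannot be told apart from the dissection and preparation of that age. Without the E15.5 pair 0 of the 8 channel genes were called (97 genes over all), and when any 1 of the 4 amplified libraries was left out, limma called 0 genes of any kind (between 1809 and 4025 at an unadjusted p under 0.05), while the 7 named channel genes kept a positive difference.

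**Figure D4:**
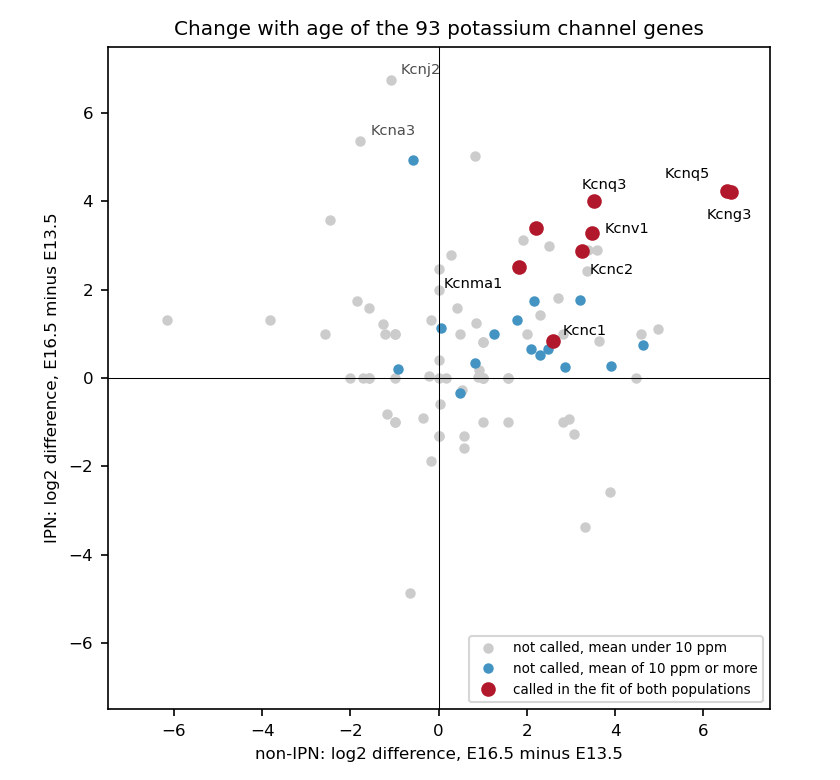
Log2 difference, E16.5 minus E13.5, in IPN (vertical axis) against non-IPN (horizontal axis) for each of the 93 potassium channel genes; red points were called, blue points were not called at a mean of 10 ppm or more, and gray points were not called below that mean. The called genes lie in the upper right, where both populations were higher at E16.5, and Kcnj2 and Kcna3 lie in the upper left, where IPN was higher and non-IPN lower at E16.5.

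For 3 channel genes the population difference itself moved with embryonic day, by a limma term for population by day that called 1.3% of all genes and 3.23% of the channel genes. Over all genes 0.624% rose and 0.68% fell with day, beside 2.15% and 1.08% of the channel genes. For Kcna3, a channel known from immune cells and some neurons, the log2 ratio of IPN to non-IPN by age was -5.78, -0.88 and 1.36 (2.39 ± 0.47 per day, limma adjusted p = 0.0218). For Kcnj2, a strong inward rectifier, it was -5.46, -2.14 and 2.38 (2.48 ± 0.51 per day, limma adjusted p = 0.029). The term has 1 residual degree of freedom and sets the E15.5 pair, which was not amplified, beside the other pairs.

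Genes that work with potassium channels but carry other symbols are given from a list of 18 partners, 4 hyperpolarization-activated channels and 6 pump subunits. Of the 18 partners, 17 were above 0 somewhere, and Abcc8 and Dpp10 were the only ones called between IPN and non-IPN. Between E16.5 and E13.5, 5 rose and 1 fell (limma), where 3.76% of all genes were called higher and 2.26% lower. The scaffold genes Dlg2 (3.79 ± 0.35, limma adjusted p = 0.000963) and Dlg4 (2.50 ± 0.58, limma adjusted p = 0.0337) rose with Ank3, the ankyrin of the axon initial segment (1.46 ± 0.25, limma adjusted p = 0.0103). Dlg4 was low in the amplified libraries, at 0.905, 314 and 3.56 ppm in IPN against 0.501, 212 and 5.64 in non-IPN. Adam22, a receptor for the secreted protein Lgi1 (2.20 ± 0.30, limma adjusted p = 0.00394), and Abcc8 (3.79 ± 0.74, limma adjusted p = 0.0161) rose too. Cntnap2, which clusters Kcna channels on axons, fell (-2.60 ± 0.58, limma adjusted p = 0.0353), and was at 519.6 ppm in IPN against 86.8 in non-IPN at E13.5. Of 4 hyperpolarization-activated channel genes, Hcn3 rose (2.45 ± 0.46, limma adjusted p = 0.0143). Of 6 sodium potassium pump genes, 1 rose and 1 fell, the beta subunit Atp1b3 (-1.27 ± 0.28, limma adjusted p = 0.0255), and none of these 10 genes was called between populations. Without the E15.5 pair, Dlg2 kept its call with age (limma adjusted p = 0.024). Adam22, Ank3, Cntnap2, Abcc8 and Dlg4 then missed the threshold (limma adjusted p = 0.059, 0.0668, 0.1, 0.112 and 0.289). So did Hcn3 and Atp1b3 (limma adjusted p = 0.129 and 0.0768).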

How the data were processed

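The data are RNA-seq libraries of 2 sorted populations at 3 embryonic days, 1 library each. The deposited files hold 1 whole number per gene symbol. CASAVA 1.9, TopHat 1.2.0, SAMtools 0.1.18, edgeR and the mm9 build are named in the submitters' processing notes; how the values were scaled is not given in the sources used here. The deposited values were treated as a scaled signal and not as counts, because their upper quartiles nearly coincided (1502 in IPN and 1501 in non-IPN at E15.5, 438 to 444 over both amplified ages) while totals differed. True depth is therefore unknown, and no counting interval was computed.

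The 6 files were joined by symbol, and 6 of 20373 rows, from 3 symbols listed 2 times, were dropped. Tests used limma 3.58.1 (R 4.3.3), with trended and robust moderation, on log2(value + 1), which understates fold changes of low genes, with Benjamini-Hochberg adjustment over 19561 genes. The model had population and age, with 2 residual degrees of freedom and a median prior of 8.3; age pairs the libraries as a block, since both gates of an age shared dissection and preparation, per the labels' protocols. The population by day model had 1. Promoter motifs were searched on both strands of RefSeq windows.

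Members and lists were chosen with earlier results of these data known. Named genes were those called, the highest member of each subfamily by mean, and a list of channels known from brain cells; Kcnq1ot1 of that list was not analysed here, and some genes that are counted are not reported here by name. Alternatives were the pseudocount, low-value filters, scaling, moderation, the age term and leaving out libraries.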

Additional observations from a re-analysis of the deposited data

Results flagged for a closer look

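The population difference of 2 potassium channel genes, Kcna3 and Kcnj2, differed between embryonic days by the tested term for population by day. The log2 ratio of IPN to non-IPN changed by 2.39 per day for Kcna3 and by 2.48 per day for Kcnj2. Kcna3, in order of age, was at 0, 12.8 and 2.74 ppm in IPN against 3.86, 24.4 and 1.19 in non-IPN. Kcnj2 was at 0.129, 0.43 and 21.9 ppm in IPN against 9.37, 2.07 and 4.85 in non-IPN. With a pseudocount of 10 the changes per day were 1.18 for Kcna3 and 1.79 for Kcnj2 and were not called (limma adjusted p = 0.21 and 0.167). Of the marker lists, 4 of 7 red blood cell genes rose with day in the same term (Hbb-y by 3.60, Hba-a1 by 4.84, Hbb-bh1 by 4.30 and Hba-x by 2.98 per day). Of 8 radial glia genes, Nes (1.79) and Slc1a3 (1.12) rose, and 0 of 10 microglia and macrophage genes did (limma). The interneuron gene Dlx2 rose too (1.15 per day), while the interneuron gene Gad1 and the projection neuron gene Slc17a6 fell (-0.78 each). The 7 red blood cell genes summed to 5.3, 20.8 and 9.9 ppm in IPN against 35624.4, 132.9 and 15.8 in non-IPN. The part of these cells in the Kcna3 and Kcnj2 values was not tested.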

How the results depend on the processing

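Between populations, 4 channel genes higher and 4 lower in IPN became 1 and 1 with a pseudocount of 10, 0 and 0 without trend and robust moderation, and 0 and 0 with no replicate block, that is without the age term. A mean of at least 10 ppm left 3 higher, without Kcnn3 (limma adjusted p = 0.0517), and 1 lower, since the other 3 have lower means, and Abcc8 then missed the threshold (limma adjusted p = 0.0505). When a pair of libraries was left out, the counts ranged from 0 to 4 higher and 0 to 4 lower. The counts were 0 without the E15.5 pair only. The fitted differences of Kcnd2 and Kcnd3, neither of them called, reversed when a pair was left out: Kcnd2 ranged from -0.21 (without E16.5) to 0.63, and Kcnd3 from -1.17 to 0.17 (without E15.5). Equal column totals moved the median of all genes to -0.15, and Kcnv1 then missed the threshold (limma adjusted p = 0.0558). Between ages, Kcnc1 and Kcnma1 missed the threshold with TMM factors (limma adjusted p = 0.0672 and 0.0538), and 8 higher became 3 with a pseudocount of 10, and 0 without moderation, without the E15.5 pair, without the population term and without any 1 library of E13.5 or E16.5 (range 0 to 0); the count lower stayed at 0 under every alternative. For population by day, 2 rising and 1 falling became 5 and 4 with a pseudocount of 0.5, 0 and 0 with 10 or without moderation, and 6 and 8 with equal column totals, TMM factors or median of ratios, while a mean of at least 10 ppm left 0 rising. Over all genes these scalings called between 1445 and 1558 for that term, against 255 on the values as deposited. The cause was not tested. No called gene named here changed direction between populations or ages under these alternatives. Depth is unknown, and genes near 0 rest on the pseudocount.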
